A study of Homo sapiens with 8 samples.

Results

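The 10 genes described here set or mark the phenotype state of melanoma cells, from differentiated and pigment-producing to undifferentiated and invasive: MITF, SOX10, PAX3, TFAP2A, ZEB2 and SNAI2 were taken as the melanocytic side, and AXL, ZEB1, TWIST1 and SOX9 as the invasive side. They were chosen by name, and all their probes on the array were taken, which gave 15 probes of the 22184 on the array and 10 of its 16578 named genes. Probes entered the tests if at least 1 of the groups had them detected on each of its 2 arrays, at a detection p-value (the share of the array's negative controls that are at least as bright) below 0.05. This kept 13 of the 15 probes and 9 of the 10 genes, among 13844 probes in all; the ZEB1 probe and 1 of the 3 MITF probes did not pass. AXL passed only through both Caco2 AC133 high arrays.

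The study measured mRNA on Illumina HumanRef-8 v2 bead arrays in sorted cells of 2 adherent human cancer lines. WM115 is a melanoma line from skin. Caco2 is a colon adenocarcinoma line, and the Caco2 cells carried a lentiviral reporter with the mouse Melk promoter driving GFP and were isolated as clones; which clone gave which sort was not stated in the labels. In each line the 10% of cells with the highest AC133 staining (AC133 high) and the cells without staining (AC133 negative) were collected in 2 sorts, so that each of the 4 groups, WM115 AC133 high, WM115 AC133 negative, Caco2 AC133 high and Caco2 AC133 negative, has 2 arrays. AC133 is an antibody against CD133, the product of PROM1. The study asked how AC133 high and AC133 negative cells differ; the melanocytic and invasive genes are set here across those groups, with Caco2 as the non-melanocytic line.

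In melanocytes MITF drives the pigment and differentiation genes, and SOX10, PAX3 and TFAP2A act upstream of it or beside it. Melanoma cells can lower this programme and raise an invasive one that includes the receptor tyrosine kinase AXL and genes bound by AP-1 and TEAD factors, and many melanoma lines sit towards one or the other end. The factors of epithelial-mesenchymal transition are split in this lineage: ZEB2 and SNAI2 go with the differentiated state, and ZEB1 and TWIST1 with the invasive one. SOX9 is often high where SOX10 is low in melanoma, and is also a factor of intestinal crypt cells.

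MITF and AXL mark the ends of this range, so the promoters of their annotated starts are given, from RefSeq on GRCh38.p14, each 250 bases before the start and 50 bases from it on, 5′ to 3′ in the direction of the gene. Capitals mark matches, on either strand, to 10 motifs: CACGTG and CATGTG (E-boxes that MITF binds), CACCTG (bound by ZEB, SNAI2 and TWIST factors), ACAATG and ACAAAG (SOX factors), GCCNNNGGC (TFAP2A), TGACGTCA (CREB), CTTTGA (TCF and LEF factors), TGANTCA (AP-1) and GGAATG (TEAD factors). RefSeq promoters were found for 6 of the 10 genes (MITF, PAX3, TFAP2A, ZEB2, AXL and ZEB1), with 16 starts in all. SOX10, SNAI2, TWIST1 and SOX9 were not matched.
MITF start 1, chr3:69739214-69739513, plus strand: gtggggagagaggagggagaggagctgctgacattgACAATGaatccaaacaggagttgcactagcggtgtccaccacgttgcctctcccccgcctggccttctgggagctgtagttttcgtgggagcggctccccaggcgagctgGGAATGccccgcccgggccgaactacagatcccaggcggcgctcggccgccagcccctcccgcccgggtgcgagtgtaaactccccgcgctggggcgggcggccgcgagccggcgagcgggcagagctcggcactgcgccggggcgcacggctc
MITF start 2, chr3:69763561-69763860, plus strand: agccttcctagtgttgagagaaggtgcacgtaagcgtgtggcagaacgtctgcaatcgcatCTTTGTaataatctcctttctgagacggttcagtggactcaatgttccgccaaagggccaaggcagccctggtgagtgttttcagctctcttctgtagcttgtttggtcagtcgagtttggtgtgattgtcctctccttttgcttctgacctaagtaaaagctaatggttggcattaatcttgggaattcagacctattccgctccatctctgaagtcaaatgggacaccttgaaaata
MITF start 3, chr3:69936342-69936641, plus strand: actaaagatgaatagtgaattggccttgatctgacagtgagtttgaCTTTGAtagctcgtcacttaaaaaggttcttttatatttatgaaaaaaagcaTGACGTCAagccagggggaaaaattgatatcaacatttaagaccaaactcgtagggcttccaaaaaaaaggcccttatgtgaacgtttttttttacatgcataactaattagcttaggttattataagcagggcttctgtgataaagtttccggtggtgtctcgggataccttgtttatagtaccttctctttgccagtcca
AXL start 1, chr19:41218973-41219272, plus strand: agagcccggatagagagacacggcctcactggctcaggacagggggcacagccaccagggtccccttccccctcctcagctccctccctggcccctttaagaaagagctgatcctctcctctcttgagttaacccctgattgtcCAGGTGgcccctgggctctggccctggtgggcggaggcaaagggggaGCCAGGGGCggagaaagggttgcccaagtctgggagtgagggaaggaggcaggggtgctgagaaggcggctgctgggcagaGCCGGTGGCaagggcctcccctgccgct
AXL start 2, chr19:41226505-41226804, plus strand: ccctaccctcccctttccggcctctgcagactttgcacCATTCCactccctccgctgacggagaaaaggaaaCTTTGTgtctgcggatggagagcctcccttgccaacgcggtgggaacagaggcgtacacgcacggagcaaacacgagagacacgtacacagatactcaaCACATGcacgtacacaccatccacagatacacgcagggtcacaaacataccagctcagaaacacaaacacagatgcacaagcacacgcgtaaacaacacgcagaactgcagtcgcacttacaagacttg

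The third MITF start, which lies farthest downstream in the gene and makes the melanocyte form, held TGACGTCA at position -152 and CTTTGA at position -204 from the start. Over all 35116 promoters of this length, 1.8% held TGACGTCA and 12.9% held CTTTGA on either strand. The first MITF start held ACAATG and GGAATG, and the second ACAAAG, motifs present in 10.8%, 14.0% and 16.1% of all promoters. The first AXL start held CACCTG once and GCCNNNGGC at 2 places, motifs present in 20.6% and 23.2% of all promoters. The second AXL start held CATGTG, as well as ACAAAG and GGAATG, and CATGTG was present in 11.1% of all promoters. CACGTG, present in 7.3% of promoters, and TGANTCA, present in 7.7%, had no match in these 5 windows. A match is a run of letters and says nothing of binding in these cells.

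The arrays were alike in quality. Each had 11915 to 13144 probes detected (53.7% to 59.2%), a median signal of 49.5 to 58.8 and a median of 41 or 42 beads per probe, and 8 arrays limit the precision of every comparison. PROM1, the target of the sort, was at 9.60 and 9.54 on the WM115 AC133 high arrays, against 5.72 and 6.22 on the WM115 AC133 negative arrays, on the log2 scale used throughout (signal above background plus an offset of 16, quantile normalized, so that undetected probes sit near 4.4 and differences of dim probes are understated). In Caco2 it was at 10.95 and 11.12 on the AC133 high arrays, against 6.65 and 7.06 on the AC133 negative arrays. The melanocyte markers fixed for WM115 were detected there, 5 or 6 of the 6 on the array, and 1 or 2 of them in Caco2. All 8 colon markers were detected on each Caco2 array and 1 or 2 on each WM115 array.

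A single WM115 array stood apart. On the AC133 negative array of sort 2 in WM115, 175 of 13844 probes (1.26%) were more than 2-fold above each of the other 3 WM115 arrays and 37 more than 2-fold below, whereas the other 3 WM115 arrays had 1 to 11 such probes above and 1 to 11 below. In Caco2 the AC133 negative array of sort 1 had 18 above and 49 below, none of them members, and the other 3 had 0 to 3 above and 0 to 2 below. The AC133 negative array of sort 2 in WM115 holds the only high AXL value of the study, so results that rest on it are given with and without it.

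**Figure D1:**
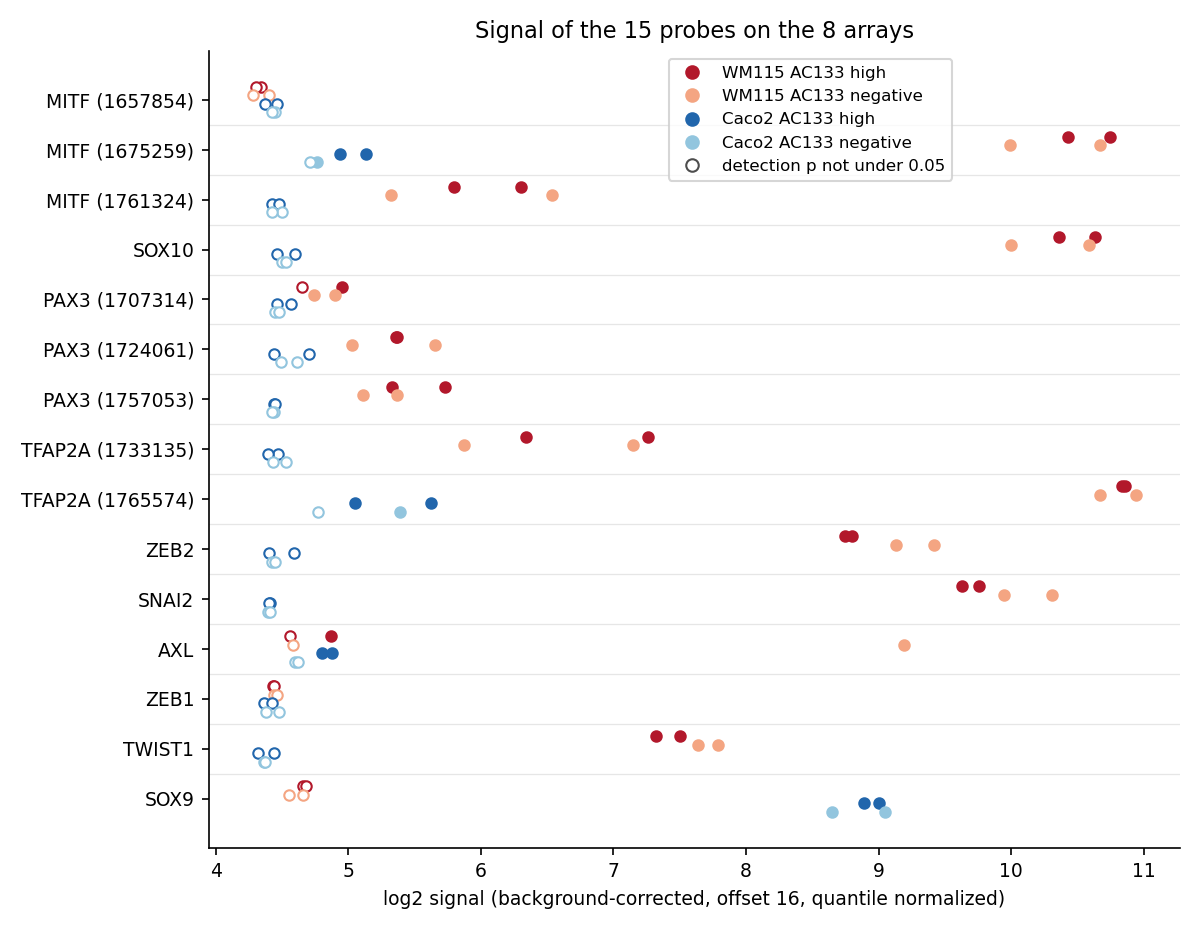
Log2 signal of each of the 15 probes (rows, with the probe number where a gene has more than 1) on the 8 arrays. Each point is 1 array, filled where the probe was detected. SOX10, ZEB2, SNAI2, TWIST1 and the strongest MITF and TFAP2A probes lie far above Caco2 on all 4 WM115 arrays, SOX9 lies far above WM115 on all 4 Caco2 arrays, and AXL is near background on 7 of 8 arrays.

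WM115 carried the melanocytic set of regulators and TWIST1, and Caco2 carried SOX9. Of the 13 probes tested, 12 differed between the lines at an adjusted p under 0.05 (limma, Benjamini-Hochberg over all probes tested), 11 higher and 1 lower in WM115. Across all probes, 58.7% differed between the lines, 29.2% higher and 29.6% lower in WM115, and the same 12 member probes had no overlap between the 4 WM115 and the 4 Caco2 arrays, against 27.7% of all probes with WM115 wholly higher and 27.8% with WM115 wholly lower. SOX10, PAX3, ZEB2, SNAI2, TWIST1, MITF ILMN_1761324 and TFAP2A ILMN_1733135 passed the detection filter through WM115 only. SOX9 passed through Caco2 only. For these probes the filter itself favours a difference between the lines. With no filter, 12 of the 15 member probes differed. Of all named genes, 19.9% were then higher and 20.4% lower in WM115. The median difference of the 13 probes was 2.20 on the log2 scale, against -0.013 over all probes tested. These are sums over bulk RNA, in which fewer cells of a type and less RNA per cell cannot be told apart.

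MITF, the lineage factor at the centre of the set, was measured by 3 probes that differed. ILMN_1675259 read 10.75 and 10.43 in WM115 AC133 high and 10.67 and 9.99 in WM115 AC133 negative cells, against 4.94 and 5.13 in Caco2 AC133 high and 4.76 and 4.71 in Caco2 AC133 negative cells. All 4 WM115 arrays lay far above all 4 Caco2 arrays, with means of 10.46 ± 0.34 and 4.89 ± 0.19 (SD, n = 4 each), a difference of 5.57 (95% interval 5.19 to 5.96, adjusted p = 2.24e-08 by limma). The dimmer probe ILMN_1761324 read 5.80, 6.30, 6.54 and 5.32 in WM115 and was not detected in Caco2, at least 2.34-fold higher in WM115 (adjusted p = 0.000767 by limma). The remaining probe, ILMN_1657854, was not detected on any array (4.28 to 4.46).

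SOX10, which switches on MITF in neural crest cells, read 10.36 and 10.63 in WM115 AC133 high and 10.59 and 10.00 in WM115 AC133 negative cells, against 4.46 to 4.60 in Caco2, where it was not detected. The groups were far apart, and SOX10 was at least 49.5-fold higher in WM115 (adjusted p = 9.81e-09 by limma). TFAP2A, a factor of neural crest and melanocytes, read 10.84 and 10.86 in WM115 AC133 high and 10.94 and 10.67 in WM115 AC133 negative cells with ILMN_1765574, against 5.05 and 5.62 in Caco2 AC133 high and 5.39 and 4.77 in Caco2 AC133 negative cells. Its difference was 5.62 (95% interval 5.21 to 6.04, adjusted p = 3.58e-08 by limma). A second TFAP2A probe, ILMN_1733135, read 5.87 to 7.26 in WM115 and was not detected in Caco2, at least 3.71-fold higher in WM115.

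PAX3, a paired-box factor of melanoblasts, was close to background in WM115 and not detected in Caco2 with any of its 3 probes. ILMN_1757053 read 5.33 and 5.73 in WM115 AC133 high and 5.37 and 5.11 in WM115 AC133 negative cells, and ILMN_1724061 read 5.36 and 5.37 in WM115 AC133 high and 5.65 and 5.03 in WM115 AC133 negative cells. In Caco2 these probes read 4.42 to 4.45 and 4.44 to 4.70. They were at least 1.54-fold and 1.50-fold higher in WM115 (adjusted p = 0.000269 and 0.00219 by limma). The dimmest, ILMN_1707314, was detected on 3 of 4 WM115 arrays and was at least 1.03-fold higher in WM115 (adjusted p = 0.0409 by limma), and this call was lost with the sort as a replicate block (adjusted p = 0.0655).

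ZEB2 and SNAI2, the members of the epithelial-mesenchymal set that melanocytes keep, were on in WM115. ZEB2 read 8.80 and 8.75 in WM115 AC133 high and 9.13 and 9.42 in WM115 AC133 negative cells, against 4.40 to 4.59 in Caco2. SNAI2 read 9.63 and 9.76 in WM115 AC133 high and 10.31 and 9.95 in WM115 AC133 negative cells, against 4.39 to 4.41 in Caco2. Neither was detected in Caco2, and the lower bounds were 19.1-fold for ZEB2 and 35.4-fold for SNAI2 higher in WM115 (adjusted p = 8.70e-09 and 4.44e-09 by limma).

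The invasive side was not of one kind. TWIST1, a basic helix-loop-helix repressor of E-cadherin, read 7.50 and 7.32 in WM115 AC133 high and 7.79 and 7.64 in WM115 AC133 negative cells, and 4.32 to 4.44 in Caco2, where it was not detected. It was at least 6.95-fold higher in WM115 (adjusted p = 4.60e-08 by limma). ZEB1, the zinc-finger factor of the invasive state, read 4.43 to 4.46 in WM115 and 4.36 to 4.48 in Caco2 and was detected on no array, so neither line has a level above background with this probe. SOX9 went the other way: it was not detected in WM115, at 4.55 to 4.68, and read 9.00 and 8.89 in Caco2 AC133 high and 9.05 and 8.65 in Caco2 AC133 negative cells, at least 18.1-fold lower in WM115 (adjusted p = 1.92e-08 by limma).

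AXL, the receptor for GAS6, was near background on every array but one. Its probe ILMN_1701877 had a deposited signal of 41.9 and 54.5 in WM115 AC133 high and 44.0 and 636.9 in WM115 AC133 negative cells, against 52.0 and 47.3 in Caco2 AC133 high and 44.8 and 46.2 in Caco2 AC133 negative cells. On the log2 scale these were 4.56, 4.87, 4.58 and 9.19 in WM115, against 4.80, 4.88, 4.60 and 4.62 in Caco2, so the lines overlapped. The high value was the mean of 36 beads with a standard error of 3.9% between them. WM115 minus Caco2 was 1.07 (95% interval -0.77 to 2.92, adjusted p = 0.284 by limma). It was -0.08 without the array that stands apart and 2.23 without the other WM115 AC133 negative array. Either way a lone array is left in the WM115 AC133 negative group, so the spread of AXL within that group is not measured.

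Genes that MITF and its partners are known to drive were mostly higher in WM115. Of 52 melanocytic programme genes other than the members, 49 were on the array and 48 were tested, of which 44 were higher and 2 lower in WM115, against 29.9% and 30.4% of all 11214 named genes tested. Only through WM115 did 15 of the 48 pass the filter, and only through Caco2 did 1. With no filter, a setting chosen after the data were seen, 44 of the 49 (89.8%) were higher in WM115, against 19.9% of all genes. GPNMB and PMEL, proteins of the melanosome, differed most: GPNMB was at least 139.5-fold higher and PMEL differed by 7.32 on the log2 scale. TYR, the first enzyme of melanin synthesis, and MLANA, a melanosome protein, were at least 80.5-fold and 80.7-fold higher in WM115. The 2 that fell were CDH1, the epithelial cadherin, and APOE, a lipid carrier.

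Of the invasive programme, more tested genes were lower than higher in WM115. Of 50 listed genes other than the members, 44 were on the array and 26 were tested, of which 4 were higher and 17 lower in WM115 than in Caco2, with a median difference of -1.17, against -0.02 over all genes and 30.4% of them lower. Only through Caco2 did 9 of the 26 pass the filter, and only through WM115 did 4. With no filter, a setting chosen after the data were seen, 5 of the 44 were higher and 18 (40.9%) lower in WM115, against 20.4% of all genes lower, and the median was -0.28. TNC, a matrix protein, and NT5E, an ecto-nucleotidase, were higher in WM115 by 4.98 and 3.64 on the log2 scale, with FOSL1, an AP-1 subunit, and the dim SLIT2, called in 6 of 16 settings, as the others. TGFBI, a secreted matrix protein, NRP1, a co-receptor for semaphorins and VEGF, CRIM1 and the growth factor receptor EGFR had the largest falls, led by TGFBI (-4.89). Without the array that stands apart, 3 were higher and 20 lower. EGFR and CRIM1 were detected on no WM115 array and were at least 5.86-fold and 10.2-fold lower there.

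Other lists placed the members among their neighbours, and 29.9% of all named genes tested were higher and 30.4% lower in WM115. Of 18 tested genes among the relatives and inputs of MITF, 8 were higher and 3 lower in WM115, among them MC1R, the melanocortin receptor, higher by 5.24, and POU3F2, a factor of neural and melanoma cells, at least 10.2-fold higher. KITLG, the ligand of KIT, was lower in WM115 (-3.75). Of 19 neural crest factors, 9 were higher, led by ETS1 (4.20), and 6 lower, led by ID2 (-4.31). Of 11 other factors of epithelial-mesenchymal transition, 7 were lower in WM115 and none higher, and the largest falls were OVOL2 (-3.68) and TCF4 (-2.68). OVOL2, GRHL2 and ESRP1 act in epithelial cells, while TCF4 is counted among the mesenchymal factors. Of 14 tested AP-1 and TEAD factors with their cofactors, 4 were higher and 7 lower in WM115.

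Between AC133 high and AC133 negative WM115 cells, no member passed the test. Across all 13844 probes 3 did (0.0217%), of which 1 was PROM1. At an unadjusted p under 0.05 there were 2 member probes, ZEB2 and SNAI2, and 642 probes in all. The median difference of the 13 member probes was 0.05 and their 95% intervals reached from 0.35 to 2.61 to either side of the estimate, the widest being that of AXL.

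ZEB2 was 8.80 and 8.75 in WM115 AC133 high, against 9.13 and 9.42 in WM115 AC133 negative cells. The groups did not overlap, and the difference of -0.50 (95% interval -0.87 to -0.12) was -0.33 in sort 1 and -0.66 in sort 2, with an adjusted p of 0.841 by limma. SNAI2, at 9.63 and 9.76 in AC133 high against 10.31 and 9.95 in AC133 negative cells, differed by -0.44 (95% interval -0.82 to -0.05, adjusted p = 1.00 by limma), with -0.68 and -0.19 in the 2 sorts. TWIST1 differed by -0.30 (95% interval -0.66 to 0.05), with -0.29 and -0.31. These 3 were the member probes wholly lower in AC133 high cells, and 12.7% of all probes tested were.

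MITF, SOX10, PAX3 and TFAP2A overlapped between the gates with every probe. MITF (ILMN_1675259) differed by 0.25 (95% interval -0.28 to 0.79), SOX10 by 0.20 (-0.29 to 0.69) and TFAP2A (ILMN_1765574) by 0.05 (-0.54 to 0.64). Their differences within sort 1 were 0.08, -0.23 and -0.09, and within sort 2 they were 0.43, 0.63 and 0.19. SOX9 was not detected on any WM115 array and has no fold there, and it was the only member probe wholly higher in AC133 high cells, as 15.3% of all probes were. The AXL difference was -2.17 (95% interval -4.78 to 0.44, adjusted p = 1.00 by limma), made of -0.02 in sort 1 and -4.32 in sort 2. Without the WM115 AC133 negative array of sort 1 it was -4.49 (adjusted p = 0.000108), and without that of sort 2 it was 0.14; the lone array left in that group is then assumed to vary like the other groups.

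In Caco2 none of the 13 member probes passed either, against 107 of 13844 probes (0.773%), and their differences ran from -0.05 to 0.30. SOX9, the member that Caco2 expresses, read 9.00 and 8.89 in AC133 high against 9.05 and 8.65 in AC133 negative Caco2 cells, a difference of 0.09 (95% interval -0.31 to 0.49). The faint MITF signal of Caco2, at 4.94 and 5.13 in AC133 high against 4.76 and 4.71 in AC133 negative cells, differed by 0.30 (-0.24 to 0.84, adjusted p = 0.929 by limma). This MITF probe, AXL (4.80 and 4.88 in AC133 high against 4.60 and 4.62 in AC133 negative cells) and the undetected PAX3 probe ILMN_1757053 were the 3 member probes wholly higher in Caco2 AC133 high cells, none was wholly lower, and 18.4% and 19.5% of all probes tested were. The test of the difference between the lines in the AC133 effect passed for no member, against 9 of 13844 probes (0.065%), and ZEB2 had the smallest unadjusted p among members, with -0.55 (95% interval -1.08 to -0.03, adjusted p = 0.818 by limma). Among the listed genes EDN3, a ligand whose receptor signals to MITF, passed in Caco2. It was at 4.74 and 4.69 in Caco2 AC133 high against 7.85 and 7.09 in Caco2 AC133 negative cells, at least 6.62-fold lower in AC133 high (adjusted p = 0.00344 by limma), and was not detected in WM115. FOXD1, a forkhead factor of the invasive programme, was the only other listed gene called within a line, with means of 6.23 in Caco2 AC133 high and 5.15 in Caco2 AC133 negative cells (1.08, adjusted p = 0.0412 by limma). The FOXD1 call was lost with the sort as a replicate block (adjusted p = 0.0785) and held in 2 of the 18 settings run. The EDN3 call held in 14. It was lost without either Caco2 AC133 high array (adjusted p = 0.0535 and 0.062), with the Caco2 arrays alone (0.0953) and with the methods' t-test (0.665).

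**Figure D2:**
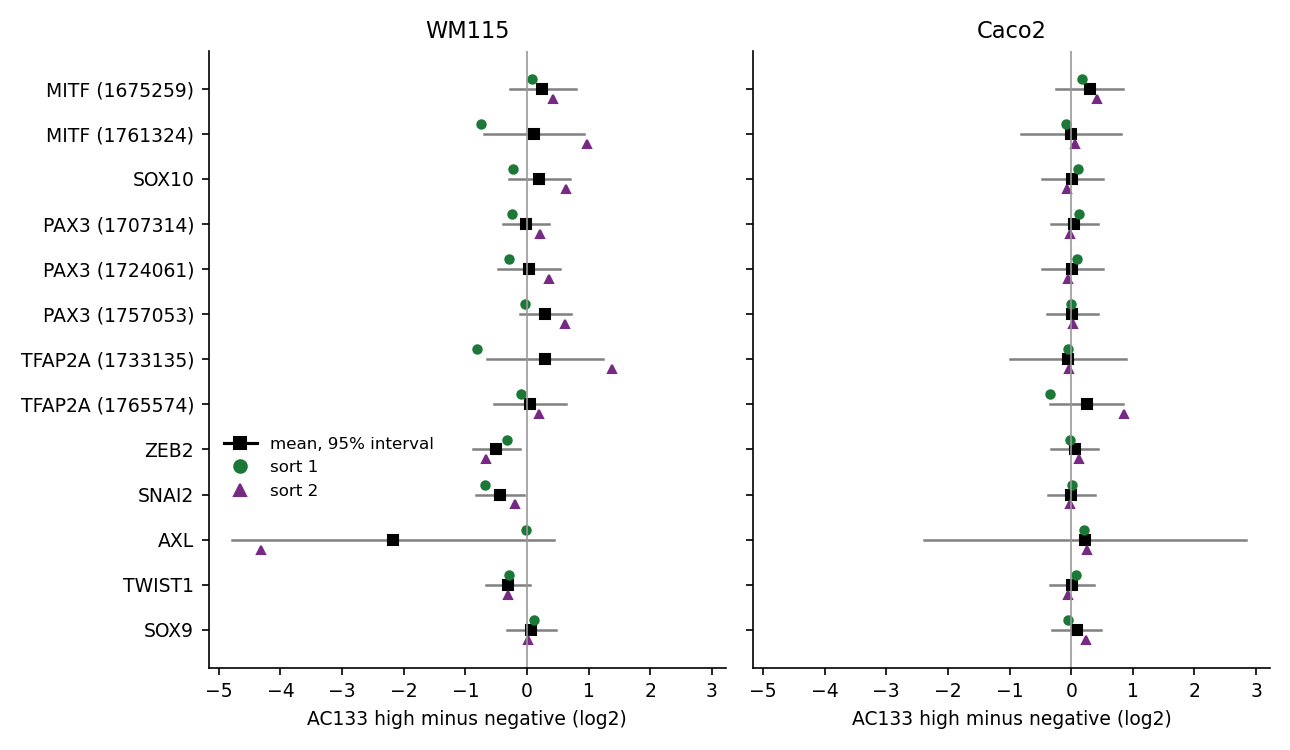
AC133 high minus negative in WM115 and in Caco2 for the 13 member probes tested, on the log2 scale. Squares are means with 95% intervals from limma, circles the difference within sort 1 and triangles within sort 2. In WM115 the sort differences lie on both sides of 0 for 7 of the 13 probes, ZEB2, SNAI2 and TWIST1 lie below 0 in both sorts, and AXL lies at -0.02 in sort 1 and -4.32 in sort 2.

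The balance of the sides was taken per WM115 array as the mean log2 deviation of the 6 melanocytic members minus that of the 3 tested invasive members (of which SOX9 is undetected in WM115), each gene by its strongest tested probe over the 8 arrays (for PAX3, ILMN_1724061) and relative to its own mean over the 4 arrays. It was 0.39 and 0.35 on the AC133 high arrays of sorts 1 and 2, against 0.58 and -1.31 on the AC133 negative arrays. Only the AC133 negative array of sort 2 was below 0. On it AXL, 1 of the 3 invasive members, was 3.39 above its mean over the 4 arrays. Since the deviations are relative to those arrays, that value also raises the balance of the others. AC133 high minus negative was -0.19 in sort 1 and 1.66 in sort 2, 0.74 on average, within the pooled SD of 0.95 between arrays of a group. Without AXL, a setting chosen after its values were seen, the 4 arrays gave -0.02 and 0.07 against 0.15 and -0.20, and the average was 0.05. That average depends on the side given to ZEB2 and SNAI2. Counted here as melanocytic, they differed by -0.50 and -0.44 in WM115 AC133 high minus negative, which lowers it. Averages with both on the invasive side or left out are not given here.

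On the array that stands apart, AXL lay 4.52 log2 units above the mean of the other 3 WM115 arrays, and ranked 4 of 13844 probes by that measure. MITF stood at -0.62 (ILMN_1675259) and -0.89 (the dimmer ILMN_1761324) relative to the same mean, and SOX10 at -0.53. TFAP2A stood at -0.21 (ILMN_1765574) and -1.04 (the dimmer ILMN_1733135). Both tested MITF probes, SOX10, both TFAP2A probes and 2 of the 3 PAX3 probes had their lowest WM115 value there, while ZEB2 had its highest (0.52) and SNAI2, TWIST1 and SOX9 lay within the range of the others. Of all named genes tested, 31.3% had their lowest WM115 value there and 27.7% their highest. ZEB1 stayed undetected. Of the 13 member probes, AXL was the 1 more than 2-fold above each of the other 3 arrays.

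**Figure D3:**
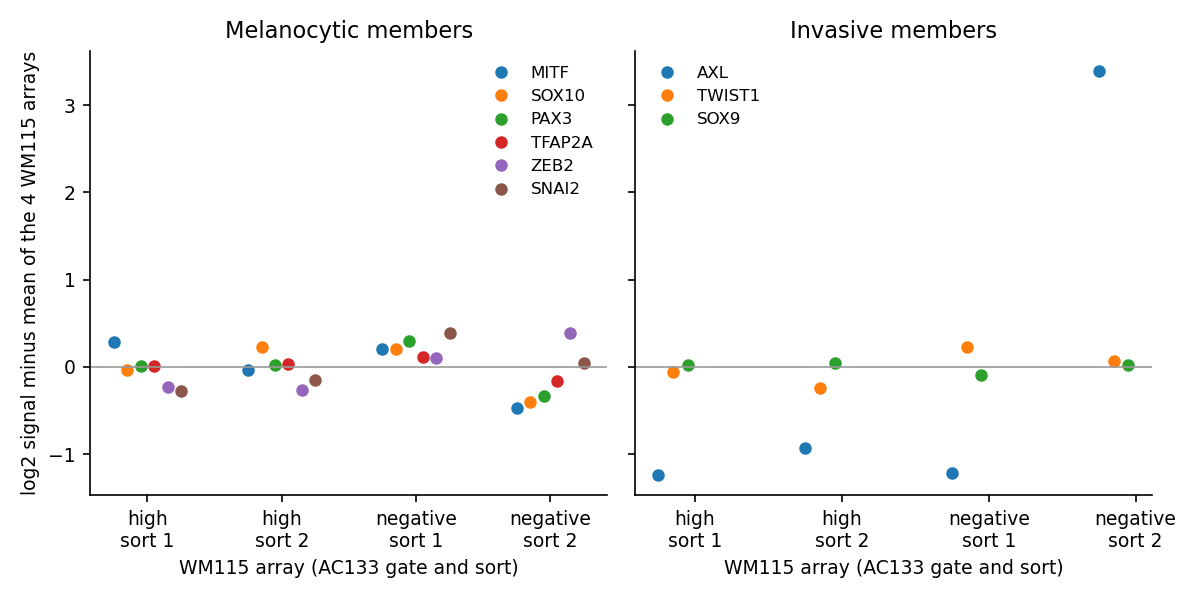
Log2 signal of the strongest tested probe of each tested member on the 4 WM115 arrays minus its mean over the 4 arrays. The 6 melanocytic genes and the 3 invasive genes are shown, each point 1 array. AXL is 3.39 above its mean on the AC133 negative array of sort 2 and at -1.24 to -0.93 on the others. Every other probe drawn stays within 0.47 of its mean. The dimmer tested probes of MITF and TFAP2A, not drawn, ranged further.

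Genes of both programmes had their extreme values on the same array. Of the 48 tested melanocytic programme genes, 42 (87.5%) had their lowest WM115 value there, against 31.3% of all genes, and their median lay at -0.61 relative to the other 3 arrays. Of the 48, 6 (12.5%) were more than 2-fold below each of the others, against 0.26% of all genes: RAB27A, which tethers melanosomes (-1.43), APOE (-1.38), ST3GAL6 (-1.31), PLXNC1 (-1.21), GYG2 (-1.16) and OCA2, a melanosome transporter (-1.09). MLANA read 10.27 there and 11.14 to 11.54 on the other 3 arrays, whereas the pigment enzyme TYRP1 read 6.52 there, within the range of the others (5.78 to 8.18).

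Of the 26 tested invasive programme genes, 22 (84.6%) had their highest WM115 value on this array, against 27.7% of all genes, with a median of 0.98. Of the 26, 10 (38.46%) were more than 2-fold above each of the other 3 arrays, against 1.41% of all genes: THBS1, TGFBI, CCN1, CRISPLD2, TPM1, NUAK1, MYOF, CCN2, FZD2 and NRP1. THBS1, a matrix glycoprotein, read 11.07 there, against 5.08, 6.96 and 6.19. CCN1 and CCN2, matricellular targets of YAP and TEAD, read 8.05 and 8.91, against 4.72 to 4.89 and 6.96 to 7.51. Since the filter removed 18 of the 44 genes, the count was repeated without it, a setting chosen after the data were seen: 12 of 44 were more than 2-fold above, against 1.16% of all 16578 genes, and none on the other 3 arrays.

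**Figure D4:**
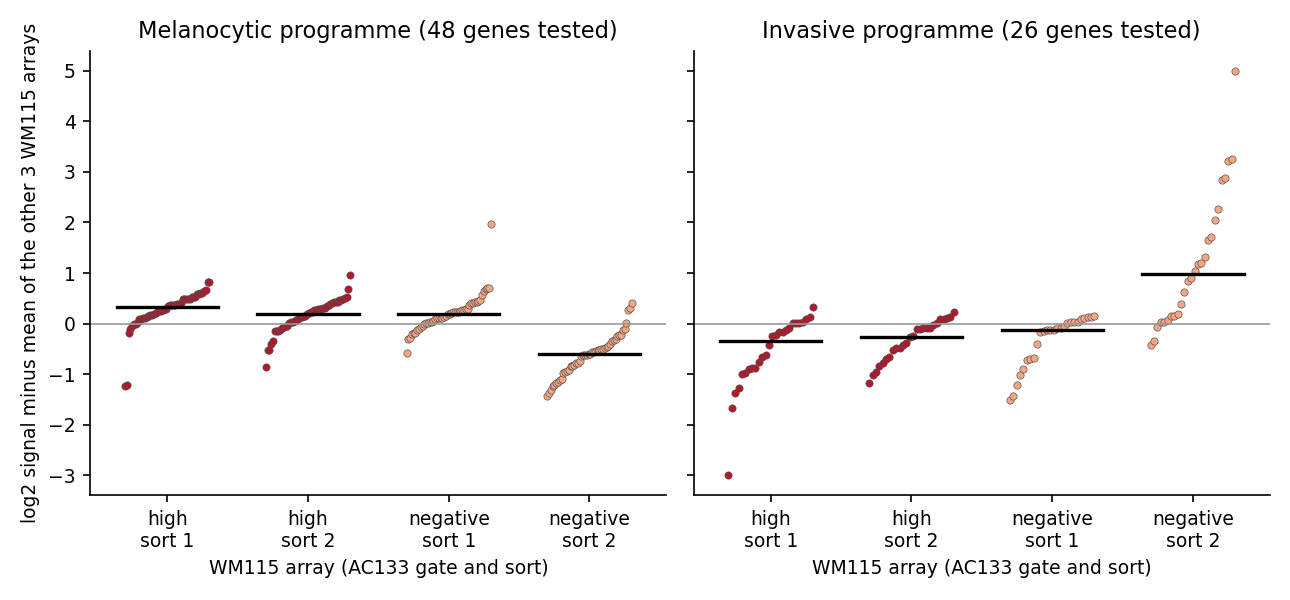
Each point is 1 gene of the melanocytic or the invasive programme on 1 WM115 array, as log2 signal minus its mean on the other 3 WM115 arrays, sorted within the array; black bars are medians. On the AC133 negative array of sort 2 the melanocytic genes centre at -0.61 and the invasive genes at 0.98.

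Among ligands and cofactors of the members, GAS6 and ANKRD1 stood out there. GAS6, the ligand of AXL, read 7.29 on that array, against 4.59 and 4.97 in AC133 high and 5.23 in the other AC133 negative sort, while TYRO3 and MERTK, the other receptors of its family, read 8.11 and 5.11, the lowest of the 4 arrays. ANKRD1, a YAP and TEAD target, read 7.32 against 4.30 to 4.41. NR2F1, an orphan nuclear receptor of neural crest, read 6.49 against 4.54 to 4.69. YAP1 itself read 10.75 there and 10.51 to 10.67 on the other 3 arrays. Deviations from the line mean over the 8 arrays were compared with those of AXL for 10425 probes, those detected on all 4 WM115 arrays. Genes detected on fewer WM115 arrays were left out. Among the genes compared, VEGFC, SLFN12 and CCDC9B correlated most with AXL (r = 0.995, 0.996 and 0.996), and VEGFC read 9.23 on that array against 4.91 to 5.08. For MITF the genes that correlated most were C14orf93, DIPK1B and CPEB4 (r = 0.998, 0.988 and 0.981). These correlations describe 8 arrays, and those with AXL rest on 1 of them.

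Some markers of another cell type were also highest on the array that stands apart. Of 7 fibroblast markers, 6 were detected on the WM115 AC133 negative array of sort 2 and 2 on each of the other 3 WM115 arrays, and their summed corrected signal was 2461.5 there, against 919.5 to 1619.6. COL1A1 read 8.28 there, against 4.38 to 4.47, and PDGFRB, COL3A1 and FAP read 5.02, 5.19 and 5.21. PDGFRB is also on the list of invasive programme genes, so the lists are not fully separate. COL1A2, the partner chain of COL1A1, was not detected on any WM115 array. LUM was high on all 4, at 11.02 there and 9.78 to 10.60 on the others. As the brightest of the 7 fibroblast markers, LUM weighs most in their summed signal. DCN, at 5.92 there, lay within the range of the others (5.43 to 6.02). The summed signal of the 6 melanocyte markers was 11589.0 there, against 17062.5 to 20618.9, a sum in which the brightest markers weigh most. PMEL, MLANA, TYR and S100A1 were lowest there, TYRP1 was not, and S100B was highest (5.28, against 4.68 to 4.89). The colon markers summed to 976.8 there, against 802.6 to 902.3, with EPCAM at 4.63 and CDH17 at 4.55, and the blood markers to 35.1, against 33.5 to 38.0. The part of other cells, and of the array itself, in the AXL value was not tested.

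**Figure D5:**
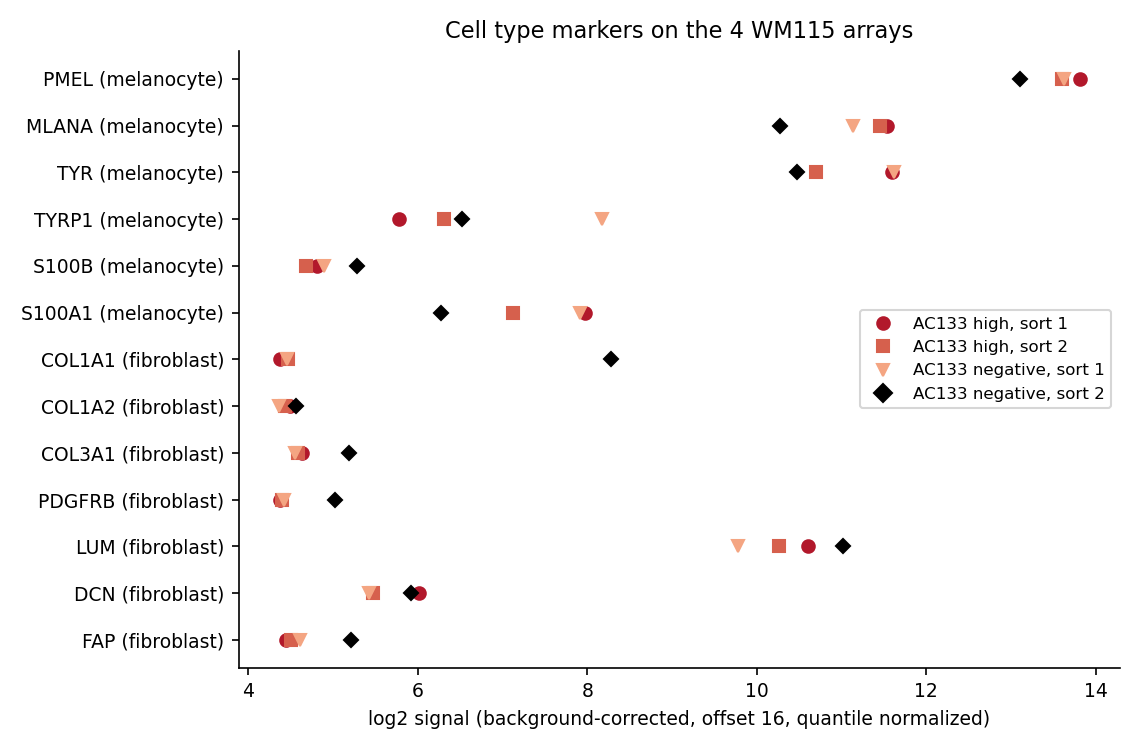
Log2 signal of the melanocyte and fibroblast markers on the 4 WM115 arrays, 1 symbol per array. The AC133 negative array of sort 2 (black diamonds) is lowest for PMEL, MLANA, TYR and S100A1, within the range of the others for TYRP1 and DCN, highest for S100B and highest for COL1A1, at 8.28 against 4.38 to 4.47 on the other 3; COL1A2 was not detected on any of the 4.

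Across the 2 gates of WM115 the programmes leaned the same way as on that array, without a call. Of 48 melanocytic genes 42 were positive in AC133 high minus negative, with a median of 0.35, and of 26 invasive genes 21 were negative, with a median of -0.54, against 0.01 over all genes; none passed the adjusted test, and 11 and 5 had an unadjusted p under 0.05, against 564 of 11214 genes. SEMA6A, a semaphorin, read 10.25 and 10.66 in AC133 high against 9.51 and 9.36 in AC133 negative cells (1.02, adjusted p = 0.325 by limma), with no overlap, and SIRPA read 11.19 and 11.24 against 10.67 and 10.48 (0.64). FZD2, a Wnt receptor, read 6.22 and 5.81 in AC133 high against 6.80 and 7.92 in AC133 negative cells (-1.34, adjusted p = 0.542 by limma), and MYOF read 7.36 and 8.23 against 8.72 and 10.15 (-1.64). Without the WM115 AC133 negative array of sort 2 the medians were 0.04 and -0.03, and without that of sort 1 they were 0.68 and -1.03. Either way a lone array is left in the AC133 negative group.

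In the 5 lists of other regulators no gene passed between the WM115 gates. Of their 68 tested genes, 6 were wholly higher and 13 wholly lower in AC133 high cells, while 15.3% and 12.7% of all probes tested were. POU3F2, BHLHE41 and TFAP2C were among them. Of the 13 wholly lower, 6 came from the 14 tested AP-1 and TEAD factors with their cofactors, of which 0 were wholly higher. In that list 12 were negative and 2 positive. BATF3, which is dim, read 4.84 and 4.71 in AC133 high against 5.32 and 5.21 in AC133 negative cells. JUND read 11.04 and 11.24 against 11.41 and 11.90. POU3F2 read 7.77 and 7.85 in WM115 AC133 high against 8.40 and 8.48 in AC133 negative cells (-0.63). BHLHE41, a basic helix-loop-helix repressor, read 8.55 and 8.12 against 7.74 and 7.02 (0.95). TFAP2C, a relative of TFAP2A, read 8.16 and 7.95 against 8.75 and 8.61 (-0.62). The MITF relative TFE3 read 5.22 and 5.11 against 5.15 and 6.01, which overlapped.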

How the data were processed

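The authors deposited, per array, the mean bead signal (intensity) of each probe, its detection p-value, the number of beads and their standard error, from BeadStudio per the file headers and the design text, and their medians differ between arrays. They also deposited a joint table of intensity values, quantile normalized by the authors with the Affy package per the design text, used here as an alternative. A genome build is not given in the sources used here; promoter sequences come from RefSeq, GRCh38.p14. All 8 arrays lie on the same slide. The design text calls the samples biological duplicates without naming separate cultures, so p-values measure the spread between sorts.

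Each array was background-corrected by normexp with the negative controls estimated through the detection p-values (offset 16), quantile normalized and taken to log2 with limma 3.58.1 in R 4.3.3. A probe was tested if detected (detection p under 0.05) on both arrays of at least 1 group. A limma fit of the 4 group means over all 8 arrays, with no block, gave the line difference, the AC133 difference in each line and their difference, with Benjamini-Hochberg adjustment over 13844 probes and 4 residual degrees of freedom plus 4.35 from the prior. The steps were tested on simulated data. A probe undetected in all arrays of one group is given as a bound ("at least N-fold"): the mean of the group in which it was detected against, per array of the other, the higher of its own signal and the lowest signal among detected probes.

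The members and lists were chosen with earlier results of these data known. All members are named, PROM1 as the check of the sort, per list up to 4 genes per direction with the smallest p in WM115 and up to 4 with the largest called difference between lines, and the 3 genes most like MITF and AXL. Genes past 2-fold on the array that stands apart, NR2F1 among them, and the pair of genes called within Caco2 were named after their values were seen. The same holds for YAP1, which was not past 2-fold there. The last 4 motifs listed were added after the first 6. Sorts bear a number in the labels that marks a shared sort within a line; same-sort arrays deviated together from their group means (correlation 0.177 in WM115 and 0.281 in Caco2), and the fit with that number as a replicate block is an alternative. Other alternatives were the background correction, offset, scaling, dim-probe filter, array weights, arrays of one line alone, the methods' t-test and leaving out each array.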

Additional observations from a re-analysis of the deposited data

Results flagged for a closer look

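Among the 26 sets of 4 arrays of one line for the 13 tested member probes, 2 held an array far from the others by Dixon's test; chance flags about 1 in 20 such sets, and 5.6% of all probes tested were marked so in WM115 and 5.1% in Caco2. AXL read 9.19 on the WM115 AC133 negative array of sort 2, against 4.56, 4.87 and 4.58 on the other WM115 arrays. SOX9 read 4.55 on the WM115 AC133 negative array of sort 1, against 4.66 to 4.68 on the other 3, and it was not detected on any of the 4.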

How the results depend on the processing

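Between the lines, 11 of the 12 called member probes kept their direction and call under every alternative run that gave them a value. The exception was PAX3 ILMN_1707314, called in 7 of the 16 settings run, with an adjusted p of 0.0285 to 0.196. None of the 15 member probes was detected on all 8 arrays, so that filter gave them no value. With the sort as a replicate block (paired arrays), member calls were otherwise unchanged, and calls over all probes were 56 in Caco2 and 4 for the difference between lines, against 107 and 9 without it. Leaving out 1 array at a time gave 11 to 12 member probes called between the lines, 0 to 1 in WM115 and 0 to 1 for the difference between lines, the 1 being AXL without the WM115 AC133 negative array of sort 1. Over all probes it gave 3 to 301 calls in WM115, 8 to 79 in Caco2 and 0 to 181 for the difference between lines, the highest for WM115 and the difference without that same array.

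Calls over all probes also depended on other choices. In WM115 they were 1 with probes detected on all 8 arrays, 0 with arrays of one line alone and 1 with the methods' t-test. In Caco2 they were 1, 1 and 0 under those settings and 41 with median scaling. For the difference between lines they were 3 with offset 50, 4 with no filter and 0 with probes detected on all 8 arrays. The cause was not tested.

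Leaving out 1 array also turned AC133 differences in WM115, all uncalled but for AXL: AXL -4.49 to 0.14, MITF -0.08 to 0.60 (ILMN_1675259) and -0.49 to 0.72 (ILMN_1761324), SOX10 -0.09 to 0.50, PAX3 -0.17 to 0.13 (ILMN_1707314) and -0.28 to 0.34 (ILMN_1724061), TFAP2A -0.36 to 0.93 (ILMN_1733135) and -0.08 to 0.18 (ILMN_1765574). AXL between the lines ranged from -0.08 to 2.23, and its difference of AC133 effects from -4.71 to -0.09. The melanocytic minus invasive shift ranged from -0.21 to 1.68, the melanocytic median from 0.04 to 0.68 and the invasive median from -1.03 to -0.03. The alternatives for these list medians were chosen after seeing the data. The invasive median was -1.34 with probes detected on all 8 arrays, which keeps fewer genes. ZEB2, SNAI2 and TWIST1 were negative in all 18 settings run and called in none. Of the other genes whose differences are given, none changed direction; APOE was called between the lines in 13 of 17 settings, and BHLHE41, FZD2 and MYOF were called in WM115 only without the AC133 negative array of sort 1 (1.32, -1.91 and -2.37). For the dim probes of PAX3, AXL and ZEB1, signal over background limits what can be seen.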
